A study of Mus musculus with 3 samples.

Results

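The 5 genes described here are *Thbs1*, *Vcan*, *Fn1*, *F13a1* and *F10*, which encode secreted proteins of the extracellular matrix and of blood clotting. They are 5 of the 27998 genes in the count matrix, and each matched 1 row by its symbol. The set was chosen on levels and changes measured in these same libraries, so the levels by cell type and the change of *Thbs1* in neutrophils are given as a description, and the tests of the other members are not independent evidence. The libraries came from the meninges, the membranes around the brain, of male C57BL/6J mice aged 10 to 12 weeks. The groups compared were home cage (HC) mice without stress and mice given 14 days of chronic social defeat (CSD) and classed as susceptible to stress. Live nucleated single cells (DAPI- DRAQ5+) from 4 mice were pooled for each library and run in 3 lanes of 1 droplet chip, giving HC replicate 1, HC replicate 2 and CSD replicate 1. With 1 CSD library, a p compares that library with the spread between the HC pools, and nothing in these data shows how CSD pools vary.

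Thrombospondin-1 (*Thbs1*) is a matrix glycoprotein that binds CD47 and CD36, activates latent TGF-beta and restrains vessel growth. Versican (*Vcan*) is a large proteoglycan that binds hyaluronan, and fibronectin (*Fn1*) is a ligand of integrins that links cells to matrix and to clots. Factor XIII subunit A (*F13a1*) is the transglutaminase that cross-links fibrin, and factor X (*F10*) is the protease zymogen that, once active, converts prothrombin to thrombin. Classical monocytes and some tissue macrophages are known to transcribe several of these genes, as are fibroblasts.

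In the GENCODE M21 annotation of GRCm38 (mm10), *Thbs1* (ENSMUSG00000040152) lies on the plus strand at chr2:118111876-118127133 and *Fn1* (ENSMUSG00000026193) on the minus strand at chr1:71585520-71653200. *Vcan* (ENSMUSG00000021614) at chr13:89655312-89742509 and *F13a1* (ENSMUSG00000039109) at chr13:36867178-37050244 are both on the minus strand. *F10* (ENSMUSG00000031444) is on the plus strand at chr8:13037308-13056676. No other gene of the matrix overlaps any of the 5 on the same strand. The 250 bases before the start of *Vcan*, *F13a1* and *F10* are shown because the 3 genes had their highest levels in the same cells, the monocyte-like cells. They are RefSeq sequences of GRCm38.p6, at chr13:89742513-89742762 (minus strand), chr13:37050245-37050494 (minus strand) and chr8:13037058-13037307 (plus strand), and 3 of the 5 genes had an entry (*F13a1* has a second start, whose window held none of the motifs searched). Capitals mark matches to a GC box (GGGCGG), a PU.1 core (GAGGAA) or a C/EBP motif (TTNNGNAA) on either strand.
Vcan promoter: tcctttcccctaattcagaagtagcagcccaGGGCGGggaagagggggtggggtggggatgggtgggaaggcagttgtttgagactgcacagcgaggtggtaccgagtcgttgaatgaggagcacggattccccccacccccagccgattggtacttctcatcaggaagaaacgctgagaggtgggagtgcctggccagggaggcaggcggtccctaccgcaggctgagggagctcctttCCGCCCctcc
F13a1 promoter: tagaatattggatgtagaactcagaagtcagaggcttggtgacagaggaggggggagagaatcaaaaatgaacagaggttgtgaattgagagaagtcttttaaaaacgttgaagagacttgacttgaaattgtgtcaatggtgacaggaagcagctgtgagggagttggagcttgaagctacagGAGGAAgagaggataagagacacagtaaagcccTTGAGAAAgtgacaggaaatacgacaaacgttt
F10 promoter: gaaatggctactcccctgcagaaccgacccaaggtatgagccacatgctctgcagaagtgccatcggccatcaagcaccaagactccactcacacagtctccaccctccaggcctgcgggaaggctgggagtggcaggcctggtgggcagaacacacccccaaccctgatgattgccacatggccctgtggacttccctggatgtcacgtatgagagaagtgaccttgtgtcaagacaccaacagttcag
The *Vcan* window held 2 GC boxes and 62.4% G and C bases, against a median of 52.4% over 32536 promoters, of which 33.0% had a GC box. The *F13a1* window held 1 PU.1 core and 1 C/EBP match, letters found in 23.4% and 36.8% of all windows. The *F10* window, like the *F13a1* window, had no GC box, AP-1 motif (TGANTCA), E-box (CACGTG) or TATA box (TATAAA). *F10* also lacked the other 2 motifs, and these 3 windows shared no motif of the 6 searched.

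The rule for barcodes (at least 500 UMIs, under 8.3% mitochondrial UMIs and the study's limits on detected genes) kept 7057 of 7131 barcodes, 2599 and 1702 in the HC libraries and 2756 in the CSD library. Median depth per cell lay between 2212 and 2503 UMIs, where a UMI is a molecular barcode that counts 1 captured RNA molecule. Droplets with at most 100 UMIs held 24.1% of all UMIs in HC replicate 2, against 7.87% and 5.48% in HC replicate 1 and CSD replicate 1, and 17 barcode sequences occurred in cells of 2 libraries. Clustering without the 5 genes and their partner lists gave 27 clusters, named by marker genes and called, for example, monocyte-like. Sets of 3 values below run HC replicate 1, HC replicate 2, CSD replicate 1. The cells numbered 837, 598 and 1406 for neutrophil-like, 101, 86 and 129 for monocyte-like and 317, 65 and 124 for border macrophage-like cells. Fibroblast-like cells numbered 114, 83 and 18, and the summed level of 9 fibroblast markers in neutrophil-like cells was 491, 507 and 88.4 CPM (UMIs per 1000000 UMIs of the class). An estimate from 16 genes that each class should lack put the share of free RNA in monocyte-like cells at 23.0%, 26.9% and 16.9%.

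Over all cells, 852 UMIs of *Thbs1*, 199 of *Vcan*, 1885 of *Fn1*, 3276 of *F13a1* and 592 of *F10* were counted. *Vcan*, *Fn1*, *F13a1* and *F10* each had their highest level in monocyte-like cells, and *Thbs1* in neutrophil-like cells, among the 11 named classes with at least 20 cells in every library. Levels below are CPM of the UMIs summed per class and library, as mean ± SD over the 3 libraries.

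**Figure D1:**
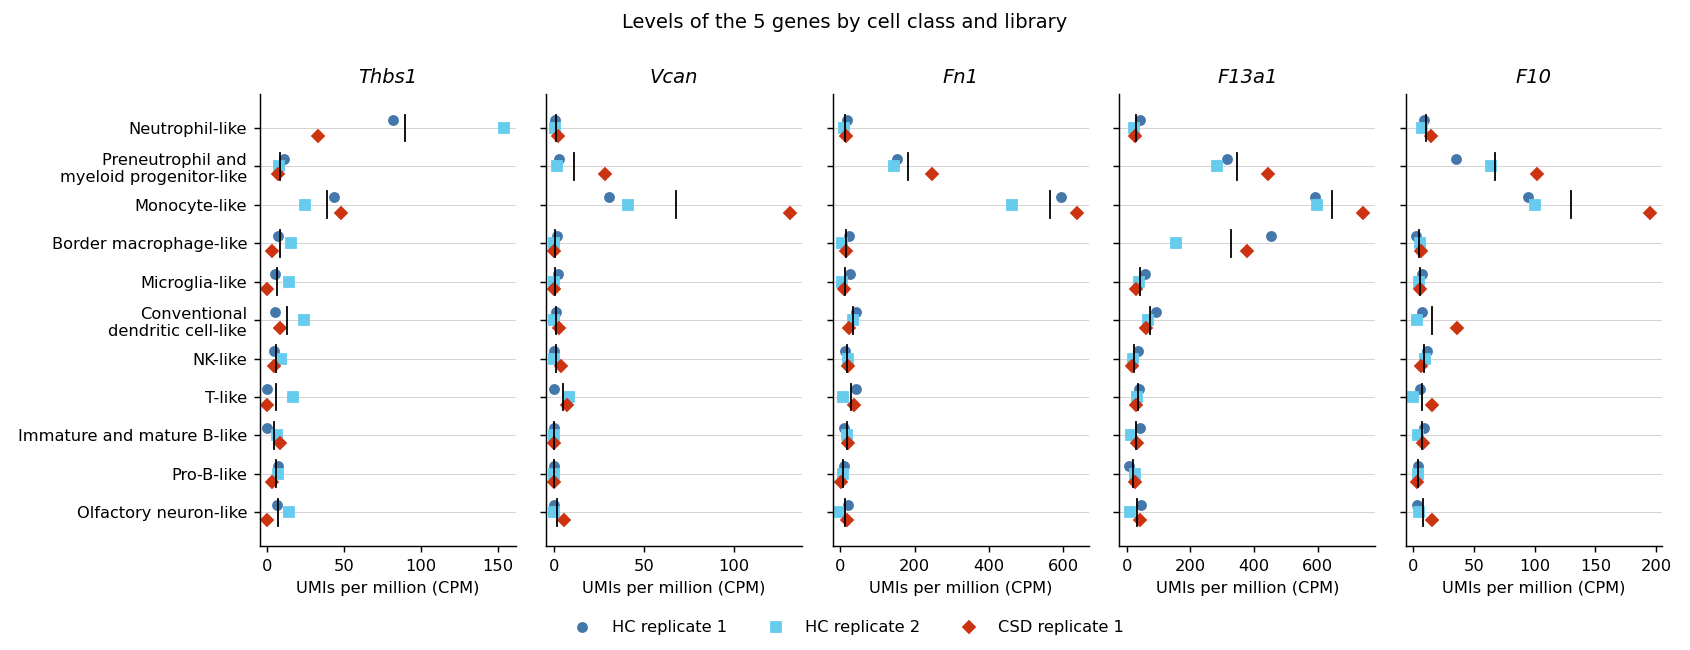
Levels of the 5 genes in 11 cell classes. Each point is 1 library (CPM of summed UMIs, linear axis) and the black line is the mean of the 3 libraries. *Vcan*, *Fn1*, *F13a1* and *F10* peak in monocyte-like cells, *F13a1* also stands high in border macrophage-like cells, and the CSD library is lowest for *Thbs1* in neutrophil-like cells (32.8 CPM).

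*Fn1* stood at 564 ± 90.3 CPM (SD, n = 3) in monocyte-like cells, at 182 ± 57.2 in preneutrophil and myeloid progenitor-like cells and at 33.8 ± 9.18 in conventional dendritic cell-like cells, and the libraries of these 3 classes did not overlap. T-like cells followed at 29.8 ± 18.8 and overlapped with the dendritic cells. The progenitor-like class pooled clusters 16 and 21, which differed in these genes and are described below. The *Fcnb* cluster 12 was counted as neutrophil-like. *F13a1* stood at 646 ± 85.7 in monocyte-like cells, above every library of the progenitor-like (348 ± 84.2) and border macrophage-like (329 ± 156) cells, which overlapped each other. *F10* had 130 ± 56.6 in monocyte-like and 67.1 ± 33.5 in progenitor-like cells, and the ranges of the 2 classes overlapped. *Vcan* had 67.8 ± 55.3 in monocyte-like cells and 2.95, 1.87 and 28.3 in progenitor-like cells, whose highest library was just below the lowest monocyte library (30.7). *Thbs1* had 89.5 ± 60.9 in neutrophil-like, 38.8 ± 12.7 in monocyte-like and 12.6 ± 10.1 in conventional dendritic cell-like cells. For *Thbs1* the top 2 classes overlapped, and the CSD library alone had them in the other order, with 32.8 CPM in neutrophil-like and 48.3 in monocyte-like cells.

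Fibroblast-like and endothelial-like cells fell outside the rule of 20 cells per library. *Thbs1* in fibroblast-like cells was 160 CPM in HC replicate 1 (74 UMIs), 59.8 in HC replicate 2 (18 UMIs) and 15.7 in CSD replicate 1 (1 UMI in 18 cells). *Fn1* in the same cells was 164, 116 and 125 CPM, and in 33 endothelial-like cells it rested on 2, 4 and 2 UMIs. A cluster of 53 plasma cell-like cells held *Thbs1* at 82.1, 94.6 and 29.8 CPM on 10, 7 and 2 UMIs. Its marker score was 2.09 for the plasma cell list and 1.1 for the mature neutrophil list, which came second. No plasma cell-like class was found with doublets left out or without batch correction.

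**Figure D2:**
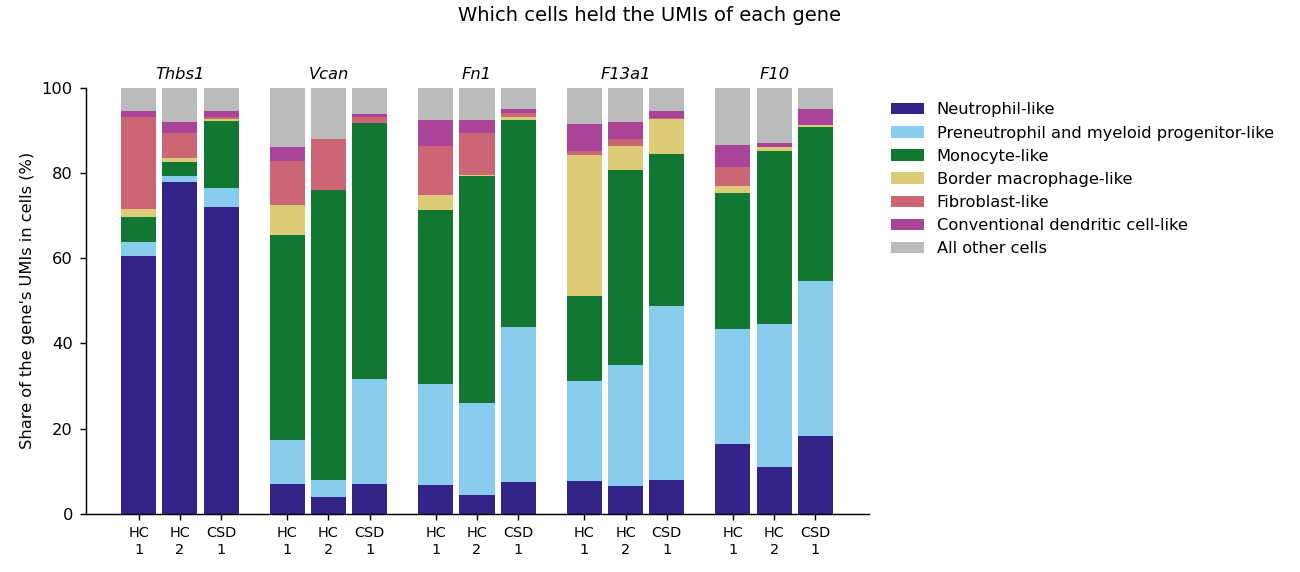
Share of each gene's UMIs held by each class (percent of the gene's UMIs in cells, 1 bar per library, bars start at 0 and end at 100). Monocyte-like and progenitor-like cells together hold most *Vcan*, *Fn1* and *F10* UMIs, and neutrophil-like cells hold 60.6% to 77.9% of *Thbs1*.

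Monocyte-like cells held 48.3%, 68.0% and 60.0% of all *Vcan* UMIs in the 3 libraries, and 40.9%, 53.2% and 48.6% of *Fn1*. For *F13a1* the share of border macrophage-like cells was 33.1% in HC replicate 1 but 5.60% and 8.32% in the other libraries. The droplets with at most 100 UMIs showed the same genes at 32.1, 41.4 and 26.8 CPM for *Thbs1*, at 77.1, 52.2 and 109 for *Fn1* and at 144, 58.3 and 145 for *F13a1*. *Vcan* in them was 3.85, 5.64 and 10.7 CPM (3, 12 and 6 UMIs) and *F10* 8.99, 10.3 and 34.0 (7, 22 and 19 UMIs). The CSD library was the highest there for both, but for *Vcan* the counting intervals of the 3 libraries overlapped.

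To compare shares of cells at 1 depth, each cell was thinned to 500 UMIs, with exact (Clopper-Pearson) 95% intervals that cover counting error only. A UMI of *F13a1* was left in 19.8% (12.5 to 28.9), 23.3% (14.8 to 33.6) and 29.5% (21.8 to 38.1) of monocyte-like cells. For *Fn1* these shares were 17.8%, 14.0% and 23.3%. Natural killer-like cells, which should lack both genes, had *F13a1* in 0.581%, 0.877% and 0 of 197 cells (a 0 that allows up to 1.52% by a limit of 3 counts), at a median depth of 2067 to 2581 UMIs against 4560 to 5048 in monocyte-like cells. B-like cells had *F13a1* in 2.55%, 0.730% and 1.14%. At their own depth, 9.90%, 17.4% and 41.9% of monocyte-like cells had a *Vcan* UMI, against 0 of 172, 0 of 114 and 1.02% of natural killer-like cells. After thinning, the *Vcan* shares were 1.98% (0.241 to 6.97), 2.33% (0.283 to 8.15) and 3.88% (1.27 to 8.81), so the difference between groups was not detectable at 500 UMIs.

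The 4 monocyte genes were then counted together in each cell. Of 316 monocyte-like cells, 25 had no UMI of *Vcan*, *Fn1*, *F13a1* or *F10*, 45.9% had at least 3 of them and 46 cells had all 4. All 4 were seen in 5.94% and 5.81% of the cells of the HC libraries and in 27.1% of those of CSD replicate 1. No cell can have all 4 without a *Vcan* UMI, seen in 9.90%, 17.4% and 41.9% of these cells. This difference is thus not independent of that of *Vcan*, and the share expected from the single genes was not computed. The same 4 genes were among the 10 highest of the monocyte cluster by fold. They were left out of the clustering but chosen with their levels by cell type known, so this is a description. In neutrophil-like cells 5 of 2841 had 3 of the genes and none had 4, at a median depth of 1750 to 2341 UMIs against 4560 to 5048. Thinned to 500 UMIs, 2.97%, 4.65% and 11.6% of monocyte-like cells kept at least 2 of the 4 genes.

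In monocyte-like cells the question was whether the 4 genes differed between CSD and HC. Of 2962 genes seen in over 15% of these cells, 11 passed an adjusted p of 0.05 by edgeR's quasi-likelihood test (0.371% of those tested), and *Vcan* was 1 of the 4 that rose. The filter was taken over the cells of the 3 libraries together, of which 25.0% had a *Vcan* UMI. By library the shares were 9.90%, 17.4% and 41.9%, so its place among the genes tested rested on the CSD cells, where it was high. *Vcan* gave 30.7 and 41.4 CPM in the HC libraries (14 and 17 UMIs) and 131 CPM in the CSD library (87 UMIs in 54 cells). Its log2 fold change was 1.85 (SE 0.31, adjusted p = 0.0324 by edgeR), and 0 of the 2962 genes had a higher one. Against the HC libraries summed, the CSD level was 3.68-fold higher (2.41 to 5.73, counting error only). Its adjusted p passed the threshold with doublets left out (0.0164, where more cells were left out of the CSD library by another cut-off), at Leiden resolution 2 (0.0145), without batch correction (3.16e-06) and with a filter of 20 UMIs (5.09e-06). It did not with at least 1000 UMIs per barcode (0.139), a mitochondrial limit of 5% (0.385), free RNA subtracted (0.756), no TMM scaling (0.0691) or DESeq2 (1.0), while the fold change kept its direction under each.

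*F10* gave 94.2 and 99.8 CPM in the HC libraries (43 and 41 UMIs) and 195 CPM in the CSD library (129 UMIs). Its log2 fold change was 0.99 (SE 0.24, unadjusted p = 0.00174, adjusted p = 0.167 by edgeR), so it did not pass. It passed without batch correction (adjusted p = 0.00851 by edgeR) and with the filter of 20 UMIs (0.00792). *Fn1* gave 594, 463 and 636 CPM and *F13a1* 594, 599 and 745. The CSD library was the highest for both, with log2 fold changes of 0.25 (approximate 95% interval -0.15 to 0.65, adjusted p = 0.806 by edgeR) and 0.31 (-0.03 to 0.64, adjusted p = 0.730 by edgeR). For *Fn1* the value was 0.48 without the first HC replicate and 0.04 without the second. All 4 members tested lay above both HC libraries after TMM scaling, as did 33.7% of the genes tested, and the set was chosen with these values known. *Thbs1* had a UMI in 13.6% of monocyte-like cells and was below the filter, at 43.8, 24.3 and 48.3 CPM (20, 10 and 32 UMIs).

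**Figure D3:**
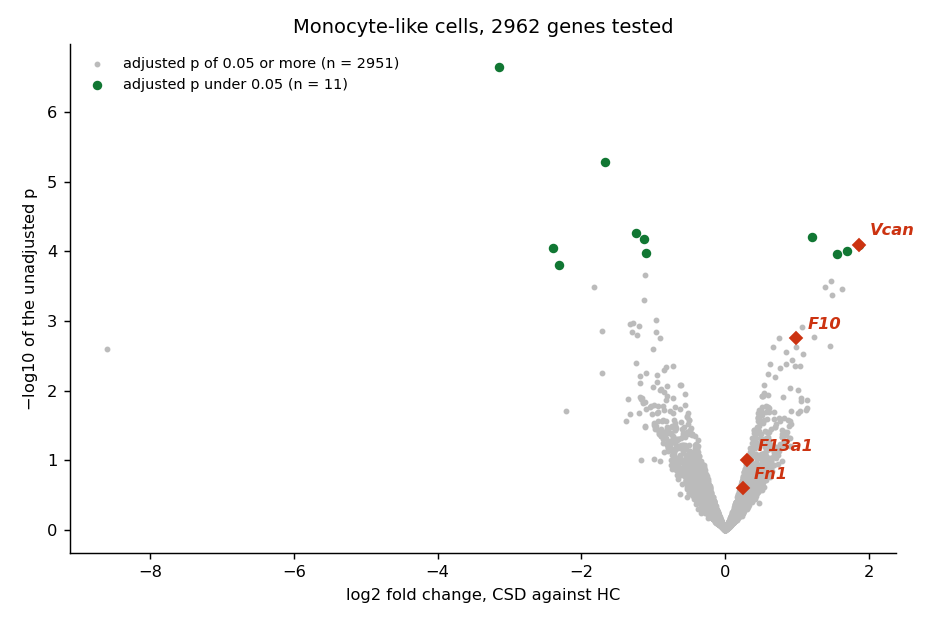
CSD against HC in monocyte-like cells for 2962 genes, as log2 fold change and −log10 of the unadjusted edgeR p. Green points are genes with an adjusted p under 0.05 and red diamonds are the 4 members tested, of which *Vcan* passes and lies farthest to the right.

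The other genes that rose in monocyte-like cells were *Ccnb2*, *Mmp8* and *Prtn3*, of which *Mmp8* and *Prtn3* are granule protease genes of neutrophils and their progenitors. The 7 that fell were the class II genes *Cd74*, *H2-Aa*, *H2-Ab1* and *H2-Eb1* and the matrix genes *Dcn*, *Mgp* and *Sparc*. The 8 progenitor markers summed to 469, 236 and 458 CPM in these cells, 11 monocyte markers to 7533, 7869 and 8219 and 9 fibroblast markers to 524, 453 and 71.0. Border macrophage markers summed to 1882, 1071 and 654 CPM, erythroid markers to 1851, 3489 and 5413 and immature neutrophil markers to 8313, 8515 and 11308. The part of these cells or of free RNA in the *Vcan* and *F10* values was not tested beyond the subtraction above, which left log2 fold changes of 1.74 and 0.83.

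Cluster 16, a progenitor cluster with cell cycle genes and *Prtn3* among its leading genes, was examined on its own after its values had been seen, so they carry no p. It held 50, 35 and 80 cells, and *F13a1* was among its leading genes. Its marker score was 1.33 for the progenitor list and 0.99 for the monocyte list, which came second. *Vcan* there was 5.27 and 2.61 CPM in the HC libraries (3 UMIs and 1) and 37.6 CPM in CSD replicate 1 (36 UMIs in 25 cells). The CSD level was 8.94-fold that of the HC libraries summed (3.20 to 34.6, counting error only). *F10* was 52.7, 81.0 and 130 CPM, *Fn1* 262, 196 and 321 and *F13a1* 520, 387 and 580, with the CSD library the highest for each. All 4 genes were seen together in 0 of 50 and 0 of 35 HC cells and in 27.5% of the 80 CSD cells, at median depths of 10521, 10830 and 11633.5 UMIs. The HC cells held 3 *Vcan* UMIs and 1, so few of them could have all 4. This difference is thus not independent of that of *Vcan*. In cluster 21, the other progenitor cluster (90 cells, led by *Mpo* and *Elane*), no cell had all 4 and *Vcan* had 0 UMIs. There 49 of 90 cells had no UMI of the 4 genes, against 9 of 165 in cluster 16.

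**Figure D4:**
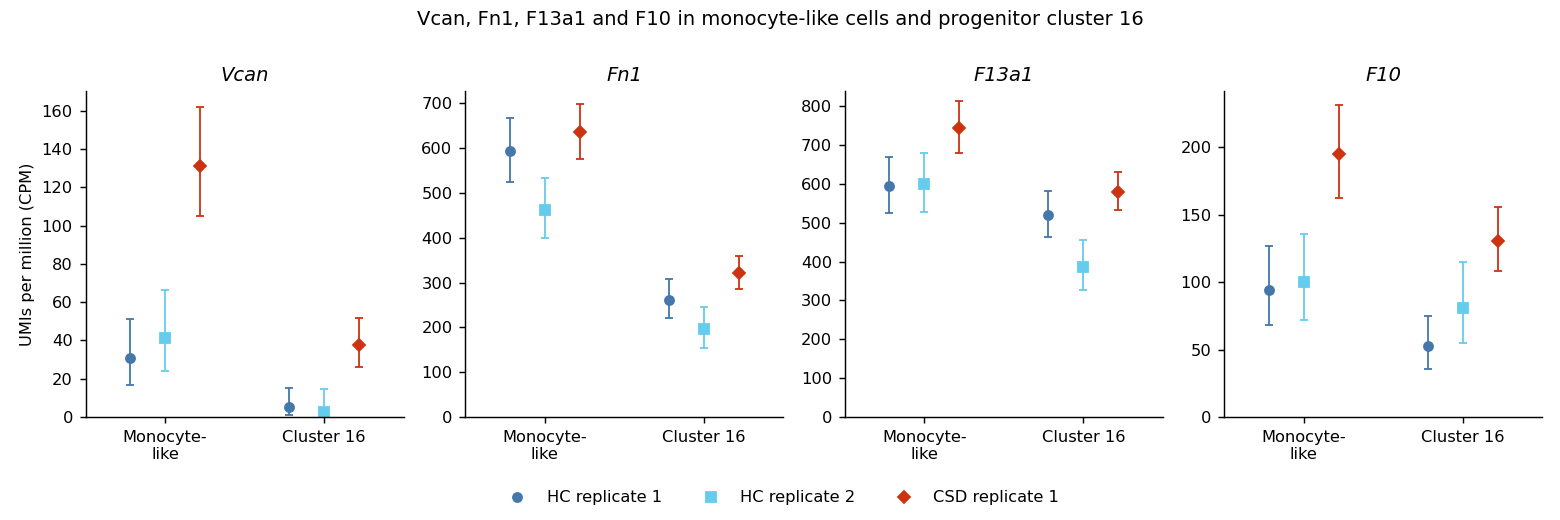
Levels of *Vcan*, *Fn1*, *F13a1* and *F10* (CPM, linear axes from 0) in monocyte-like cells and in cluster 16, 1 point per library with an exact Poisson 95% interval for counting error. The CSD point is the highest in every panel, and the ratio of CSD to HC is the largest of the 4 genes for *Vcan* (3.68-fold in monocyte-like cells and 8.94-fold in cluster 16).

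In neutrophil-like cells none of the 5 genes was seen in over 15% of cells, *Thbs1* coming closest at 14.7%, and 1 of 1348 genes tested passed by edgeR (0.0742%). By library, *Thbs1* was seen in 18.8%, 24.2% and 8.25% of these cells, so the CSD cells brought it under the filter. *Thbs1* was 81.8 CPM in HC replicate 1 (209 UMIs), 154 in HC replicate 2 (236 UMIs) and 32.8 in CSD replicate 1 (147 UMIs). The HC libraries thus differed from each other, and the CSD library lay below both, 3.32-fold under the HC libraries summed (2.75 to 4.03, counting error only). The log2 ratio of the CSD level to the HC mean was -1.84 and stayed between -2.23 and -1.32 when either HC library was left out.

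The CSD level of *Thbs1* was below both HC levels in each of the 5 neutrophil clusters, 2 called mature and 3 immature by their markers, of which cluster 4, called immature, scored almost alike for both and had 1 immature and 3 mature markers among its 10 leading genes (*Mmp8* is in both lists). In cluster 1, mature cells led by *Retnlg* and *Cxcr2*, it was 120, 152 and 27.4 CPM. In cluster 3, mature cells led by *Il1b*, it was 102.4, 270 and 47.7 CPM. In cluster 2, immature cells led by *Ltf*, *Camp* and *Ngp*, it was 90.1, 158 and 30.9 CPM. Cluster 4, with *Mmp8* and *Mmp9*, had 128, 218 and 74.3 CPM and the smallest ratio, 2.24-fold (1.62 to 3.15). Cluster 12, the *Fcnb* cluster, had the lowest levels at 21.5, 16.1 and 7.66 CPM (16, 4 and 8 UMIs), and its HC replicate 2 cells were shallow, with a median of 944.5 UMIs against 10409 and 10699.

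**Figure D5:**
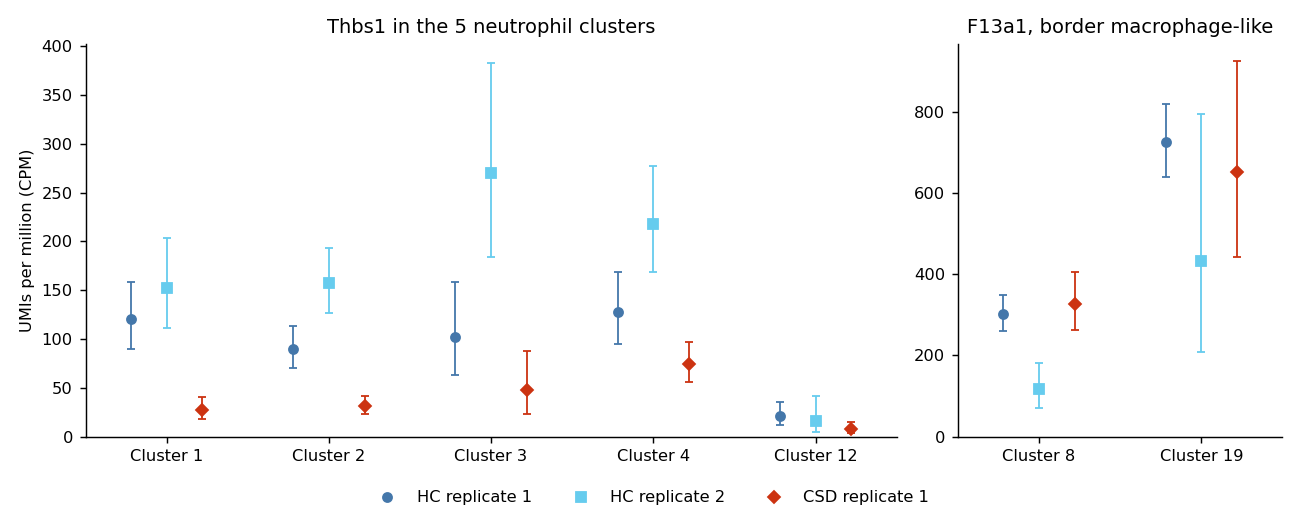
*Thbs1* in the 5 neutrophil clusters (left) and *F13a1* in the border macrophage-like clusters 8 and 19 (right), in CPM from 0, 1 point per library with an exact Poisson 95% interval for counting error. The CSD point for *Thbs1* is the lowest in all 5 clusters, and the *F13a1* points of CSD and HC replicate 1 lie close together.

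Thinned to 500 UMIs, *Thbs1* was left in 6.33% (4.78 to 8.20), 8.53% (6.42 to 11.1) and 1.64% (1.04 to 2.44) of neutrophil-like cells, against 0 of 172, 0.877% and 0 of 197 natural killer-like cells. The summed fibroblast markers in neutrophil-like cells were lower in the CSD library as well (491, 507 and 88.4 CPM), with *Mgp* and *Dcn* the highest and *Pdgfra* at 0 in both HC libraries. Of the platelet markers, *Pf4* was at 105, 16.9 and 13.6 CPM, *Gp1ba* and *Treml1* were at 0 and each other gene was at most 5.09. Erythroid markers were at 1914, 3376 and 5145 CPM and border macrophage markers at 1797, 879 and 541. The part of these cells in the *Thbs1* values was not tested. With the empty-droplet profile subtracted, the log2 ratio of *Thbs1* was -2.10.

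*F13a1* was the only member tested in border macrophage-like cells, where it was seen in 48.8% of cells. It gave 454, 154 and 378 CPM (450, 30 and 115 UMIs), with the CSD library between the HC libraries and a log2 fold change of 0.23 (approximate 95% interval -0.46 to 0.93, adjusted p = 1.0 by edgeR). In this class 7 of 1962 genes passed (0.357%). The direction turned on which HC library was left out, at 1.26 without the first replicate and -0.25 without the second. The 2 clusters of the class took different shares of the libraries. Cluster 19, with *Lyve1* and *Mrc1*, had 117, 7 and 25 cells and *F13a1* at 726, 432 and 651 CPM. Cluster 8, with high MHC class II genes, had 200, 58 and 99 cells and *F13a1* at 302, 117 and 328 CPM. Cluster 19 was thus above cluster 8 in each library.

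The change from HC to CSD was compared between monocyte-like and border macrophage-like cells in 1 model with the library as a block. Of 3116 genes, 7 passed (0.225%) and none was a member. The difference for *F13a1* (macrophage minus monocyte) was -0.06 on the log2 scale (SE 0.28, adjusted p = 0.997 by edgeR). For *Vcan* it was -5.03 with an SE of 3.07 (adjusted p = 0.884 by edgeR), since border macrophage-like cells held 2 *Vcan* UMIs in all.

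Partners of the 5 genes were mostly too sparse to test, and *Vcan* was the only gene of the 4 lists that passed in these 3 classes. Its change was known when it was chosen, and it met the filter through the CSD cells. Its call is therefore not independent evidence about the lists. In monocyte-like cells 6 of 44 coagulation and fibrinolysis genes were tested, with 0 past the threshold and a median log2 fold change of 0.30 against -0.01 over all 2962 genes. These 6 include *F13a1* and *F10*, whose changes were known when they were chosen, so the median is not independent of them. The highest were *S100a10* (824, 1086 and 1376 CPM) and *Anxa2* (863, 908 and 991 CPM), which together form the annexin A2 complex that binds plasminogen on cell surfaces. *S100a10* had a log2 fold change of 0.52 (adjusted p = 0.531 by edgeR). Of 18 thrombospondins and receptors 7 were tested and 0 passed (median -0.34), among them *Cd47*, the receptor that signals on thrombospondin-1 binding, at 254, 341 and 292 CPM. The other 3 most abundant were *Calr* (188, 251 and 331 CPM), *Tgfb1* (118, 136 and 71.0) and *Lrp1* (74.5, 68.2 and 57.4). Of 25 versican and hyaluronan genes 3 were tested, and beside *Vcan* the hyaluronan receptor *Cd44* stood at 127, 99.8 and 124 CPM and *Tlr2* at 89.8, 85.2 and 71.0. *Hmmr*, next in that list, was too sparse to test at 10.95, 4.87 and 10.6 CPM. Of 19 fibronectin genes 4 were tested and 0 passed (median -0.23), and the integrin genes *Itgb7* (142, 187 and 143 CPM), *Itga4* (101, 90.1 and 81.6) and *Itgb1* (67.9, 70.6 and 49.8) followed *Fn1*. In neutrophil-like cells 3, 2, 1 and 0 genes of the 4 lists were tested and in border macrophage-like cells 6, 6, 1 and 3, with 0 past the threshold in either direction.

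The genes whose levels ran most like each member over 33 points (11 classes in 3 libraries, Pearson r of log2 of CPM plus 10) were then listed. The points of a library share its depth and free RNA, so r is a description. *F10* and *Fn1* were each other's nearest gene among those with at least 200 UMIs (r = 0.90). After *F10*, *Fn1* was most like *Cd300lg* (0.87) and *Glud1* (0.86). *F10* was next most like *Ms4a8a* (0.86) and *AI839979* (0.86), and *Vcan* was most like *Ms4a8a* (0.86), *F10* (0.84) and *Fn1* (0.82). *F13a1* was most like *Ms4a6c* (0.90), *Idh1* (0.87) and *Ccl9* (0.85), and it correlated at 0.79 with *Fn1*, 0.72 with *F10* and 0.65 with *Vcan*. *Thbs1* was apart from the others, at 0.18 to 0.32 with each, and nearest to *Prdx5* (0.83), *Padi4* (0.82) and *Mcemp1* (0.82), of which *Padi4* encodes the enzyme that citrullinates histones in neutrophils.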

How the data were processed

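Single meningeal cells of 12 mice in 3 pools were measured by 10x Genomics 3' RNA sequencing. Per the labels' processing notes, the authors ran Cell Ranger 2 against mm10 (annotation release not given in the sources used here), and the deposited values are UMI counts per gene and barcode for the 3 libraries together. Members and lists were chosen with earlier results of these data known. Barcodes were selected by the rule in the text, with doublets kept. Cells were clustered with custom Python code and leidenalg 0.10.2 at Leiden resolution 1, and the clusters were named by fixed markers. The input was 3000 variable genes without members and list genes, reduced to 50 components and corrected by mutual nearest neighbours across libraries. Scrublet was run in scanpy 1.11.5. UMIs summed per library and class were tested in edgeR 4.0.16 (TMM, genes in over 15% of cells, Benjamini-Hochberg adjustment), which left 1 residual degree of freedom. Alternatives were DESeq2 1.42.0, no TMM, a 20-UMI filter, Scrublet doublets left out (1.81% and 1.47% of the HC libraries by its own threshold, which marked 0.145% of the CSD library, so there the 5.5% with the highest scores), at least 1000 UMIs, a 5% mitochondrial limit, no batch correction, resolution 2, subtraction of the empty-droplet profile and leaving out each HC library.

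Named genes were the 5 members, the 3 genes most like each, and from each partner list those past the threshold and the 4 highest in monocyte-like cells. *Dcn*, *Mgp*, *Sparc*, the class II genes, *Ccnb2*, *Mmp8*, *Prtn3* and cluster-leading genes are named as context, after their values were seen. Members' levels were not compared with each other, because capture differs between genes. Depth was 8814690 to 10206236 UMIs per library. Intervals of levels, shares and ratios cover counting error only, and those of log2 fold changes use edgeR's standard error between libraries.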

Additional observations from a re-analysis of the deposited data

Results flagged for a closer look

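In 6 results the CSD library lay below both HC libraries in 1 class while it lay above both in monocyte-like cells for the same gene. These differences were not tested. *Thbs1* had a log2 ratio of CSD to the HC mean of -1.84 in neutrophil-like cells and -0.37 in preneutrophil and myeloid progenitor-like cells (11, 4 and 9 UMIs), against 0.50 in monocyte-like cells (20, 10 and 32 UMIs). *Fn1* had -0.62 in conventional dendritic cell-like cells (40, 11 and 9 UMIs) against 0.27 in monocyte-like cells. *F13a1* had -0.39 in conventional dendritic cell-like, -0.80 in microglia-like and -0.81 in natural killer-like cells against 0.32 in monocyte-like cells. These rest on 86, 22 and 22 UMIs in dendritic cell-like, 24, 8 and 5 in microglia-like and 15, 6 and 7 in natural killer-like cells. Natural killer-like cells, which should lack *F13a1*, had 34.0, 18.7 and 15.03 CPM at an estimated free RNA share of 19.5%, 26.9% and 16.8%. Droplets with at most 100 UMIs had 144, 58.3 and 145 CPM. Whether the level in natural killer-like cells is background or expression was not tested. *Thbs1* in progenitor-like cells was 10.8, 7.50 and 7.07 CPM at free RNA shares of 19.7%, 26.7% and 19.4%. *F13a1* in microglia-like cells was 58.6, 38.2 and 27.8 CPM at shares of 29.0%, 27.0% and 19.7%. *Fn1* in dendritic cell-like cells was 43.3, 33.2 and 24.9 CPM at shares of 23.0%, 36.3% and 22.7%. The part of free RNA in these levels was not tested.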

How the results depend on the processing

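No paired analysis was possible because HC has replicates 1 and 2 and CSD only replicate 1, so the groups share 1 number. In monocyte-like cells 11 genes passed, against 18 with doublets left out, 49 without batch correction, 64 with a 20-UMI filter, 1 by DESeq2, 2 without TMM and 0 with at least 1000 UMIs, a 5% mitochondrial limit or free RNA subtracted (287, 198 and 131 at an unadjusted p under 0.05 by edgeR). In neutrophil-like cells 1 passed, against 3, 2, 10, 34 and 50 with at least 1000 UMIs, no batch correction, DESeq2, no TMM and the 20-UMI filter, and 0 with doublets left out, the 5% limit, resolution 2 or subtraction (85, 79, 83 and 29 unadjusted by edgeR). In border macrophage-like cells 7 passed, against 1 with doublets left out, without batch correction or by DESeq2, 4 at the 5% limit, 11 with subtraction, 13 with the 20-UMI filter and 0 with at least 1000 UMIs (61 unadjusted by edgeR). The difference between these classes gave 7 genes, against 2, 15, 13 and 3 with at least 1000 UMIs, subtraction, no TMM and the 20-UMI filter, which were chosen after seeing the data. Without TMM, 12 genes rose and 22 fell in neutrophil-like cells (0 and 1 with it), and 0 rose and 2 fell in monocyte-like cells (4 and 7 with it). The cause was not tested.

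*Vcan* in monocyte-like cells lost its call at log2 fold changes of 2.13 (at least 1000 UMIs), 1.90 (5% limit), 1.74 (subtraction), 1.86 (DESeq2) and 1.87 (no TMM), and was 1.61 and 1.93 without HC replicate 1 and 2. *F13a1* in border macrophage-like cells had a log2 fold change of 0.23, which was 1.26 without HC replicate 1 and reversed to -0.25 without HC replicate 2. *Thbs1* in neutrophil-like cells kept its direction under all 8 alternatives. *Vcan* rested on 14, 17 and 87 UMIs in monocyte-like cells.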
